A study of Mus musculus with 4 samples.

Results

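Slc12a2, Cftr, Kcnq1, Kcne3, Atp1b1 and Aqp1 encode parts of the chloride, potassium and water transport machinery of the intestinal crypt. They were chosen by symbol, and all 6 were found among the 18436 rows of a table of RNA levels in sorted Lgr5-GFPhigh intestinal stem cells. The cells came from 2 Lgr5-CREPTWT and 2 Lgr5-CREPTKO mice, and the question was how loss of CREPT, a regulator of transcription encoded by Rprd1b, altered these cells. Levels were FPKM, which counts fragments per kilobase of transcript relative to the size of each library, so levels of different genes can be set side by side on a per-length scale.

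Lgr5-CREPTWT mice carried Lgr5-EGFP-IRES-creERT2, and Lgr5-CREPTKO mice carried the same allele together with CREPT fl/fl, on a C57BL/6 background by the study's methods. Both genotypes received tamoxifen intraperitoneally at 1 mg per day for 5 days, and cells were sorted at day 7 from mice that were 6 to 8 weeks old. GFP and the tamoxifen-dependent Cre were both driven from the Lgr5 gene, an allele known for patchy expression among crypts, and the Lgr5-CREPTWT mice shared the allele and the tamoxifen. Each column of the table was a single mouse. From the steps between the lowest values of short RNA genes of known length, each library was estimated to hold 17900000 to 18800000 fragments. At that depth the lowest level among the 6 genes, Cftr at 65.2 FPKM, corresponded to 1226 fragments per kilobase. The counting error of the fragments on a single kilobase was then 2.86%.

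Fluid secretion by crypt cells starts at the basolateral membrane, where the cotransporter NKCC1, the product of Slc12a2, brings chloride into the cell together with sodium and potassium. Chloride leaves through the apical channel CFTR, potassium returns through basolateral channels such as KCNQ1 with its subunit KCNE3, and the sodium pump, of which ATP1B1 is a beta subunit, keeps up the sodium gradient that drives entry. Water follows the salt, and AQP1 is a channel for water.

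Rprd1b, the targeted gene, was at 17.7 and 18.1 FPKM in the Lgr5-CREPTWT mice and at 6.65 and 7.36 FPKM in the Lgr5-CREPTKO mice. Both Lgr5-CREPTKO values lay below both Lgr5-CREPTWT values, as the labels give the genotypes. Rprd1b fell by 1.29 on the log2 scale (standard error 0.09, adjusted p = 0.028 by limma's moderated test). This call was lost with no intensity trend (adjusted p = 0.0623 by limma). It was also lost with no filter on low values (0.116), where no gene passed. Leaving out any 1 of the 4 mice lost it too, but those fits had 1 mouse in a genotype and cannot decide the call. The log2 fold change was then -1.36 to -1.23. In these bulk samples a lower level can come from fewer cells that express a gene or from less RNA per cell, and these cannot be told apart.

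In the same fit, on log2(FPKM + 0.5) over the 12621 genes whose mean over the mice reached 0.5 FPKM, 52 genes passed an adjusted p of 0.05 as higher in Lgr5-CREPTKO mice (0.412% of those tested) and 337 as lower (2.67%). All 6 transport genes were above this minimum, and 0 of the 6 passed in either direction by limma. At an unadjusted p under 0.05 by limma, 4 of the 6 were higher, beside 9.27% of all genes tested, and 1 was lower, beside 15.2%. Both Lgr5-CREPTKO values lay above both Lgr5-CREPTWT values for 4 of the 6, as for 25.6% of all genes tested, and below them for 1, as for 31.0%. With 2 mice per genotype an exact two-sided permutation test cannot give a p below 0.333, which each of these 5 genes reached. The 6 genes were picked with these values known, so the counts describe them and are not independent evidence.

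The genes lie apart in the genome. On GRCm38.p6, Atp1b1 spans chr1:164437099-164458355, Cftr chr6:18170687-18322770, Aqp1 chr6:55336299-55348555, Kcne3 chr7:100176507-100184869 and Kcnq1 chr7:143106877-143427050. The RefSeq promoter table, on the same build, held 4 of the 6 genes (Aqp1, Atp1b1, Cftr and Kcne3), and the 250 bases before the start are shown for 3 of them, because Aqp1 and Cftr were higher and Kcne3 was lower in both Lgr5-CREPTKO mice. The windows are chr6:55336049-55336298 for Aqp1, chr6:18170437-18170686 for Cftr and chr7:100178433-100178682 for the downstream of the 2 Kcne3 starts, all on the plus strand. Capitals mark the GC box, GGGCGG or its reverse complement CCGCCC.
Aqp1: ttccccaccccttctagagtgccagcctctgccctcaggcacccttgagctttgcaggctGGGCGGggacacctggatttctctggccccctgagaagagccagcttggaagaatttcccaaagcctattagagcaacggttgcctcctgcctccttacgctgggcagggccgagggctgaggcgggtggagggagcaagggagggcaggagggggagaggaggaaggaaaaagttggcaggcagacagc
Cftr: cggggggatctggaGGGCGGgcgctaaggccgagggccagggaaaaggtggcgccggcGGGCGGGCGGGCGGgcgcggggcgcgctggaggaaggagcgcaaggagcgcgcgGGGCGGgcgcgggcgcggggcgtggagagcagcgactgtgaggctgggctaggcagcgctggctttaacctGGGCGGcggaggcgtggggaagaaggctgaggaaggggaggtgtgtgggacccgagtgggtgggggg
Kcne3: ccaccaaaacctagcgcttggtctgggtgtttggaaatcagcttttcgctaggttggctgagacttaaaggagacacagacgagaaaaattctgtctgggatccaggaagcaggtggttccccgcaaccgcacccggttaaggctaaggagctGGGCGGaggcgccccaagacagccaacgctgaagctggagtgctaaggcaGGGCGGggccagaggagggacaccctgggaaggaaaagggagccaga
The GC box occurred 6 times in the Cftr window, 2 times in this Kcne3 window and 1 time in the Aqp1 window. It was present in 32.7% of 32807 promoter windows of the same length, searched on both strands. Of the 2 windows not printed, that of Atp1b1 held 2 GC boxes and 1 CCAAT, and that of the upstream Kcne3 start held 0 GC boxes and 2 CCAAT. None of the 3 printed windows held CCAAT (33.8% of all windows), TATAAA (12.4%), the TCF/LEF motif CTTTGAT (3.21%) or CACGTG (6.02%) on either strand. In the Cftr window 3 of the GC box matches overlap one another. G and C made up 76.4% of the Cftr window, 62% of the Aqp1 window and 58% of the Kcne3 window, against a median of 52.4% over all windows. These are matches of letters, and binding was not measured.

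**Figure D1:**
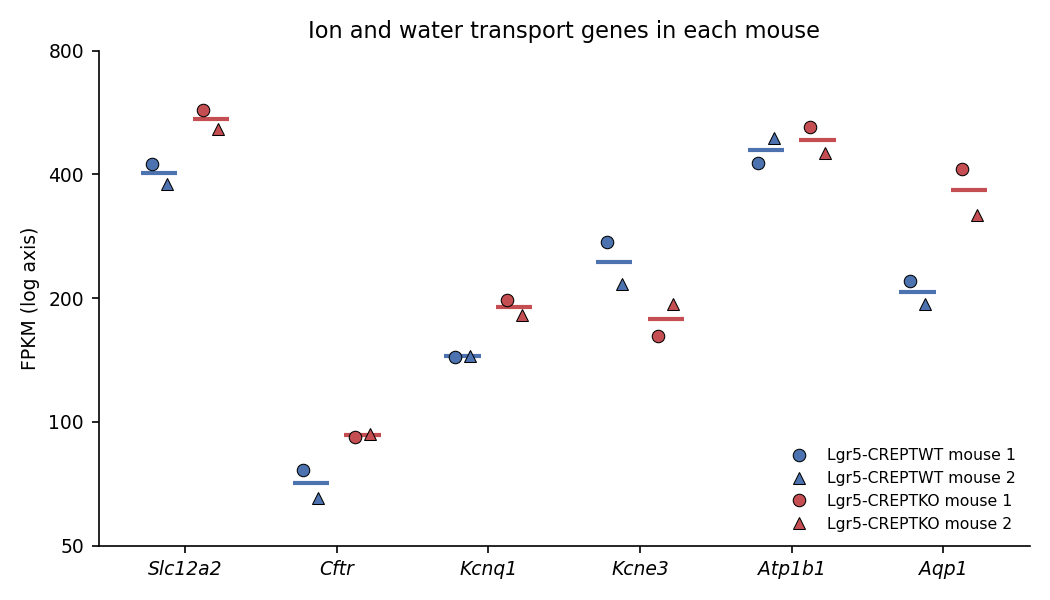
FPKM on a log axis of the 6 transport genes in each mouse, blue for Lgr5-CREPTWT and red for Lgr5-CREPTKO, with circles for mouse 1, triangles for mouse 2 and a bar at the mean of each genotype. The genotypes are apart for Slc12a2, Cftr, Kcnq1, Kcne3 and Aqp1 and overlap for Atp1b1.

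Slc12a2, the route of chloride entry, is a gene of 27 exons at chr18:57878512-57946821. Its level was 425 and 380.2 FPKM in the Lgr5-CREPTWT mice and 574 and 517 FPKM in the Lgr5-CREPTKO mice. The genotypes did not overlap, and the gap between them was wider than the gap between mice of the same genotype. The mean was 403 ± 31.9 FPKM (SD, n = 2) in Lgr5-CREPTWT mice and 546 ± 40.4 FPKM (SD, n = 2) in Lgr5-CREPTKO mice. The log2 fold change was 0.44, with a 95% interval from 0.19 to 0.69 and an adjusted p of 0.0811 by limma, so the difference did not pass the threshold.

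Cftr, the apical exit for chloride, was the least abundant of the 6 genes in every mouse. It was at 76.5 and 65.2 FPKM in the Lgr5-CREPTWT mice and at 91.9 and 93.7 FPKM in the Lgr5-CREPTKO mice. Both Lgr5-CREPTKO mice were higher, and they differed from each other less than the Lgr5-CREPTWT mice did. The log2 fold change was 0.39 (95% interval 0.14 to 0.64), and the adjusted p of 0.0971 by limma was above 0.05. The ratio of Slc12a2 to Cftr FPKM was 5.56 and 5.84 in the Lgr5-CREPTWT mice and 6.25 and 5.52 in the Lgr5-CREPTKO mice. These ratios of the entry gene to the exit gene overlapped between genotypes. Gm15592, an annotated antisense gene whose span overlaps that of Cftr by 18913 bases, was not analysed here.

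Kcnq1 encodes the pore of a potassium channel that recycles potassium across the basolateral membrane. Its level was 144 and 145 FPKM in the Lgr5-CREPTWT mice and 198 and 182 FPKM in the Lgr5-CREPTKO mice. The Lgr5-CREPTWT mice were nearly equal and both Lgr5-CREPTKO mice were above them. The log2 fold change was 0.40 (95% interval 0.20 to 0.59), with an adjusted p of 0.0638 by limma. Kcnq1ot1, a long RNA antisense to Kcnq1, was at 4.21 and 3.18 FPKM in the Lgr5-CREPTWT mice and at 2.54 and 2.61 FPKM in the Lgr5-CREPTKO mice. Whether strand was used in counting is not given in the sources used here, so reads of Kcnq1 and its antisense genes cannot be told apart where they overlap. Another antisense gene there, 4933417O13Rik, was at 0.18 and 0.14 FPKM in the Lgr5-CREPTWT mice and at 0.21 and 0.26 FPKM in the Lgr5-CREPTKO mice, and Gm28821 was not analysed here.

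Kcne3 encodes the small subunit that keeps KCNQ1 open in secreting epithelia. It went the other way from its pore gene, at 273 and 216 FPKM in the Lgr5-CREPTWT mice and 162 and 194 FPKM in the Lgr5-CREPTKO mice. Both Lgr5-CREPTKO mice were below both Lgr5-CREPTWT mice, although the nearest pair, at 216 and 194 FPKM, was closer together than the mice within either genotype. The log2 fold change was -0.46 (95% interval -0.84 to -0.07), with an adjusted p of 0.153 by limma. With a trend with transcript length removed, as described below, it was -0.29 (95% interval -0.67 to 0.08). Without the first Lgr5-CREPTWT mouse it was -0.29 (adjusted p = 0.39), and the adjusted p ranged from 0.128 to 0.435 over 15 alternatives. In each mouse the ratio of Kcne3 to Kcnq1 FPKM was 1.90 and 1.49 in Lgr5-CREPTWT and 0.814 and 1.07 in Lgr5-CREPTKO. The 2 genes thus stood in opposite order in the first Lgr5-CREPTKO mouse and close to equal in the second. Gm34821, an annotated antisense gene across Kcne3, was not analysed here.

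Atp1b1, the beta subunit gene of the sodium pump, was at 427 and 490.5 FPKM in the Lgr5-CREPTWT mice and at 521 and 451 FPKM in the Lgr5-CREPTKO mice. The genotypes overlapped. The log2 fold change was 0.08 (95% interval -0.21 to 0.37, adjusted p = 0.702 by limma), and it became -0.02 without the first Lgr5-CREPTWT mouse and also without the first Lgr5-CREPTKO mouse. Atp1b1 shares 617 bases at its end with Nme7 on the other strand, which was at 8.01 to 9.56 FPKM in the 4 mice. Atp1b3, another beta subunit gene, was at 41.1 and 41.6 FPKM in the Lgr5-CREPTWT mice and at 44.3 and 42.3 FPKM in the Lgr5-CREPTKO mice, so Atp1b1 was the more abundant beta subunit gene in all 4 mice.

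Aqp1, the water channel, had the widest difference of the 6 genes. Its level was 221 and 194 FPKM in the Lgr5-CREPTWT mice and 413 and 318 FPKM in the Lgr5-CREPTKO mice. Both Lgr5-CREPTKO mice were well above both Lgr5-CREPTWT mice, and the first Lgr5-CREPTKO mouse was the highest. The mean was 207 ± 18.9 FPKM (SD, n = 2) in Lgr5-CREPTWT mice and 366 ± 67.3 FPKM (SD, n = 2) in Lgr5-CREPTKO mice. The log2 fold change was 0.81 (95% interval 0.43 to 1.19), which corresponds to a fold of 1.75 (1.35 to 2.28). The adjusted p was 0.061 by limma, just above the threshold. It was 0.0453 when genes of short RNAs were left out of the table, and it ranged from 0.0412 to 0.332 over all 15 alternatives.

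**Figure D2:**
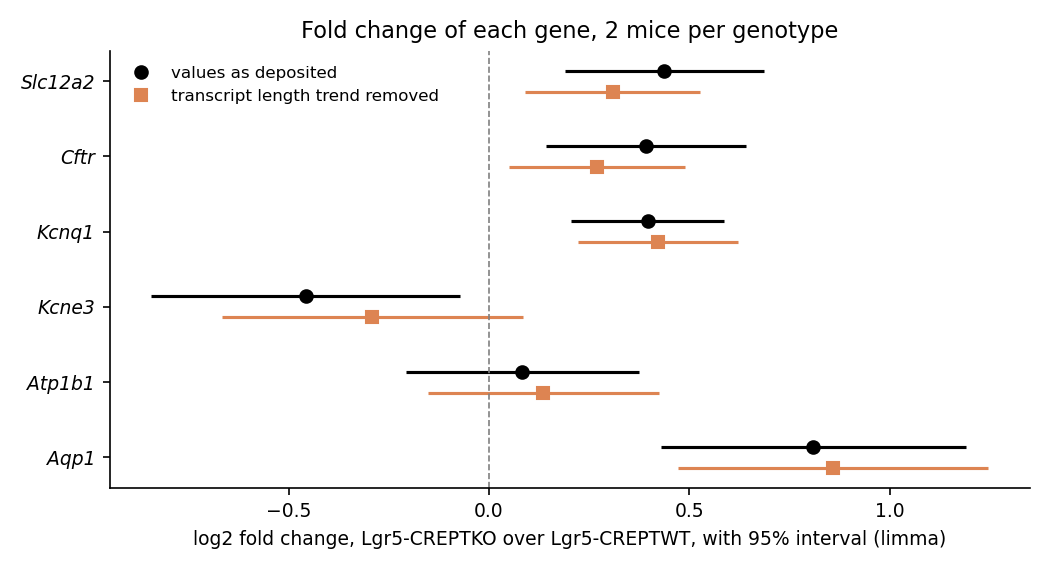
log2 fold change of each transport gene, Lgr5-CREPTKO over Lgr5-CREPTWT, with its 95% interval from limma (2 mice per genotype), for values as deposited (black circles) and after a trend with transcript length was removed (orange squares). The interval lies above 0 for Aqp1, Kcnq1, Slc12a2 and Cftr in both fits, includes 0 for Atp1b1 in both, and includes 0 for Kcne3 only after the trend was removed.

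Ordered by mean FPKM, the Lgr5-CREPTWT mice had Atp1b1 (459), Slc12a2 (403), Kcne3 (245), Aqp1 (207), Kcnq1 (144) and Cftr (70.85). In the Lgr5-CREPTKO mice the order was Slc12a2 (546), Atp1b1 (486), Aqp1 (366), Kcnq1 (190.2), Kcne3 (178) and Cftr (92.8). Within each mouse the genes followed the order of their genotype, except that Kcne3 was above Kcnq1 in the second Lgr5-CREPTKO mouse. In Lgr5-CREPTWT, Slc12a2 and Atp1b1 were at 425 and 427 FPKM in the first mouse and at 380.2 and 490.5 FPKM in the second. Aqp1 and Kcne3 exchanged places, with Aqp1 above Kcne3 in both Lgr5-CREPTKO mice. Among all 18436 rows, Slc12a2 ranked 156 and 178 in Lgr5-CREPTWT and 113 and 122 in Lgr5-CREPTKO, while Aqp1 ranked 300 and 340 in Lgr5-CREPTWT and 145 and 194 in Lgr5-CREPTKO. Cftr ranked 1211 in its lowest mouse, which still placed it in the top 6.57% of rows. In the same orientation, none of the 6 shared any run of 50 bases with transcripts of another gene in GENCODE M21.

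Fold changes over the whole table moved with transcript length. Among 11396 genes tested with a protein-coding transcript of known length (90.3% of those tested), the median log2 fold change was -0.21 in the 1425 shortest and 0.17 in the 1425 longest. Spearman's rho across these genes was 0.39, as a description, since genes are not independent replicates. The difference between mice of the same genotype, the second minus the first, also moved with length, with rho of -0.15 for Lgr5-CREPTWT and -0.15 for Lgr5-CREPTKO. Slc12a2 (6520 bases) and Cftr (6303 bases) were among the longest, and Kcne3 (1323 bases) was among the shortest.

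With the length trend subtracted in each mouse, an alternative chosen after the data were seen, the log2 fold change of Slc12a2 became 0.31 and that of Cftr 0.27. Kcne3 became -0.29, and its 95% interval of -0.67 to 0.08 included 0. Aqp1 (2627 bases) and Kcnq1 (3029 bases), of middle length, stood at 0.86 and 0.42. Atp1b1 (2580 bases) stood at 0.13. Directions were the same for all 6. By limma 0 of 6 passed the adjusted threshold, beside 64 genes called higher and 262 lower of the 11396 tested in this fit. The 95% interval lay above 0 for Aqp1, Kcnq1, Slc12a2 and Cftr. How many of all genes in this fit had such an interval is not given here. The origin of the length trend was not tested.

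**Figure D3:**
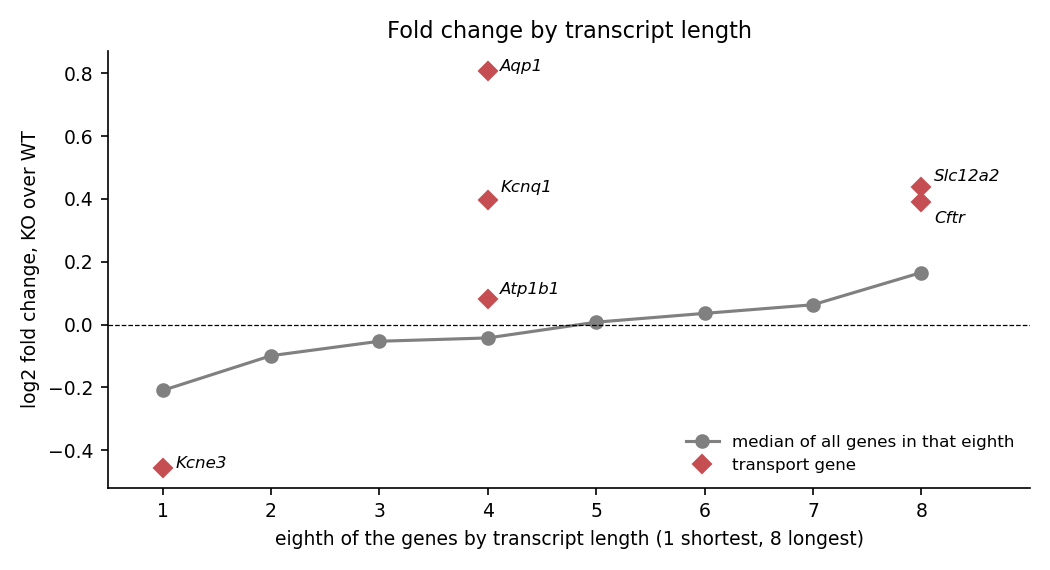
log2 fold change, Lgr5-CREPTKO over Lgr5-CREPTWT, against transcript length, with 11396 genes split by length into 8 groups; grey points are the median of each group and red diamonds the 6 transport genes. The median runs from -0.21 to 0.17, Kcne3 sits in the shortest group and Slc12a2 and Cftr in the longest.

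The wider transport pathway was described with 6 lists that also hold the 6 genes. Of 190 genes listed, 110 were tested, and by limma 0 passed as higher and 1, Clca4b, as lower, beside 0.412% and 2.67% of all genes tested. At an unadjusted p under 0.05 by limma, 23 were higher and 11 lower, beside 9.27% and 15.2% of all genes tested. Of the 104 genes other than the 6, 19 were higher and 10 lower at this p. Of the 110, 46 had both Lgr5-CREPTKO values above and 26 had both below the Lgr5-CREPTWT values, beside 25.6% and 31.0% of all genes tested. Of the 104, 42 had both above and 25 had both below. Fold changes moved with transcript length, as above, and these counts are not given for the fit with that trend removed. The median log2 fold change was 0.07, and 0.06 for the 104 genes other than the 6, beside -0.01 over all genes tested.

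Of 25 genes of chloride entry and exit tested, 0 passed as higher and 1 as lower by limma (0.412% and 2.67% of all genes tested), with 6 higher and 4 lower at an unadjusted p under 0.05 (9.27% and 15.2%). Without Slc12a2 and Cftr, 4 of 23 were higher and 4 lower at this unadjusted p, beside the same shares. Clca4b, the gene that passed, of a family of secreted and membrane proteins linked to calcium-activated chloride currents, was at 189.9 and 163 FPKM in the Lgr5-CREPTWT mice and at 91.1 and 88.0 FPKM in the Lgr5-CREPTKO mice. The genotypes were well apart. Clca4b fell by 0.97 on the log2 scale, with an adjusted p of 0.0309 by limma. The call was lost with no intensity trend (0.0657) and with no filter on low values (0.123), where no gene passed. It was also lost when any 1 mouse was left out, but those fits had 1 mouse in a genotype and cannot decide it. Clca4b then had a log2 fold change of -1.08 to -0.86. It was also not called when an absolute log2 fold change over 1 was required as well. Its level is uncertain, because 24.8% of its runs of 50 bases occur in transcripts of other genes, mostly Clca4a, which was at 0.15 to 0.70 FPKM.

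Clca3b was the most abundant gene of that list, at 1407 and 1698 FPKM in the Lgr5-CREPTWT mice and 1279 and 1455 FPKM in the Lgr5-CREPTKO mice, which overlapped. Clca1, a goblet cell product, was at 31.2 and 64.4 FPKM in the Lgr5-CREPTWT mice and at 13.5 and 29.6 FPKM in the Lgr5-CREPTKO mice. Clcn2, a chloride channel, was at 23.8 and 21.5 FPKM in Lgr5-CREPTWT and 28.7 and 29.2 FPKM in Lgr5-CREPTKO mice. Its log2 fold change was 0.35 with an adjusted p of 0.0933 by limma, so it did not pass either. Ano1, a calcium-activated chloride channel, was at 0.20 to 0.56 FPKM and below the minimum for testing.

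Of 12 potassium channel genes tested, 0 passed by limma, 2 were higher and 3 lower at an unadjusted p under 0.05 (9.27% and 15.2% of all genes tested), and the median log2 fold change was -0.01. Without Kcnq1 and Kcne3, 1 of 10 was higher and 2 lower at this unadjusted p, beside the same shares. Kcnn4, the calcium-activated basolateral channel of secreting cells, was at 66.7 and 59.3 FPKM in the Lgr5-CREPTWT mice and at 69.0 and 71.8 FPKM in the Lgr5-CREPTKO mice. Kcnk1, a leak channel, was at 68.3 and 76.5 FPKM in the Lgr5-CREPTWT mice and at 79.3 and 63.2 FPKM in the Lgr5-CREPTKO mice. Kcne3 and Kcnq1 were therefore the most abundant genes of this list in all 4 mice. Kcne2, another subunit that can join KCNQ1, was at 0.06 FPKM or less in all 4 mice, and Kcne1 was not analysed here.

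In the list of sodium pump subunits and FXYD proteins, 5 genes were tested and 0 passed by limma, with 1 higher and 1 lower at an unadjusted p under 0.05 (9.27% and 15.2% of all genes tested). Atp1b1 made up 44.7% of the summed FPKM of this list in the Lgr5-CREPTWT mice.

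Of 4 aquaporin genes tested, 0 passed by limma, with Aqp1 higher and Aqp4 lower at an unadjusted p under 0.05 (9.27% and 15.2% of all genes tested). Aqp4, a basolateral water channel, was at 44.7 and 40.2 FPKM in the Lgr5-CREPTWT mice and at 37.1 and 35.1 FPKM in the Lgr5-CREPTKO mice. Its log2 fold change was -0.23 (adjusted p = 0.19 by limma). Aqp11, an intracellular aquaporin, was at 18.7 and 17.5 FPKM in the Lgr5-CREPTWT mice and at 16.7 and 15.2 FPKM in the Lgr5-CREPTKO mice. Aqp7 was at 0.77 and 0.70 FPKM in the Lgr5-CREPTWT mice and at 0.42 and 0.58 FPKM in the Lgr5-CREPTKO mice. Aqp4, Aqp11 and Aqp7 each had both Lgr5-CREPTKO values below the Lgr5-CREPTWT values, as for 31.0% of all genes tested. Of these, Aqp4 alone had an unadjusted p under 0.05 by limma. Aqp1 had both values above, as for 25.6% of all genes tested. The ratio of Aqp1 to Aqp4 FPKM was 4.93 and 4.82 in Lgr5-CREPTWT mice and 11.1 and 9.07 in Lgr5-CREPTKO mice. Aqp1 made up 76.9% of the aquaporin FPKM in Lgr5-CREPTWT and 87.3% in Lgr5-CREPTKO mice. Aqp3 and Aqp8, aquaporins known from the colon, were at 0.39 and 0.66 FPKM or less.

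Of 20 genes of bicarbonate and sodium-proton exchange tested, 0 passed by limma, with 5 higher and 1 lower at an unadjusted p under 0.05 (9.27% and 15.2% of all genes tested) and a median log2 fold change of 0.04. Slc4a4, which carries sodium and bicarbonate across the basolateral membrane, was at 13.4 and 11.4 FPKM in the Lgr5-CREPTWT mice and at 18.8 and 15.0 FPKM in the Lgr5-CREPTKO mice. Its genotypes did not overlap, with a log2 fold change of 0.43 and an adjusted p of 0.166 by limma. It was 0.27 without the first Lgr5-CREPTKO mouse and 0.26 with the length trend removed. The genotypes overlapped for 3 apical exchanger genes: Slc26a3 was at 10.2 to 13.7, Slc26a6 at 6.08 to 12.7 and Slc9a3 at 1.24 to 4.02 FPKM over the 4 mice. Slc5a1, the sodium-glucose cotransporter and most abundant gene of this list, was at 59.2 and 76.5 FPKM in the Lgr5-CREPTWT mice and 78.2 and 85.3 FPKM in the Lgr5-CREPTKO mice. Car9, a carbonic anhydrase, was at 52.2 and 52.7 FPKM in Lgr5-CREPTWT and 43.5 and 48.8 FPKM in Lgr5-CREPTKO mice, and the anion exchanger gene Slc4a2 was at 31.1 to 33.8 FPKM throughout.

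Of 44 regulators of secretion tested, 0 passed by limma, with 8 higher and 1 lower at an unadjusted p under 0.05 (9.27% and 15.2% of all genes tested) and a median log2 fold change of 0.11. Wnk1, a chloride-sensing kinase upstream of NKCC1, was at 21.8 and 22.0 FPKM in the Lgr5-CREPTWT mice and at 33.1 and 27.7 FPKM in the Lgr5-CREPTKO mice. Its log2 fold change was 0.46 (adjusted p = 0.088 by limma), and 0.22 with the length trend removed. The kinases that WNK1 acts through overlapped or differed little. Stk39 was at 41.5 and 37.4 FPKM in Lgr5-CREPTWT and 42.4 and 40.7 FPKM in Lgr5-CREPTKO mice. Oxsr1 was at 18.1 and 16.8 FPKM in Lgr5-CREPTWT and 18.8 and 19.8 FPKM in Lgr5-CREPTKO mice.

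Guca2a, which encodes guanylin, the peptide that opens CFTR through cyclic GMP, was at 68.7 and 105 FPKM in the Lgr5-CREPTWT mice and at 34.9 and 40.3 FPKM in the Lgr5-CREPTKO mice. Its log2 fold change was -1.17 with an adjusted p of 0.061 by limma, and -0.84 (adjusted p = 0.0873) with the length trend removed. The genotypes were apart, but the threshold was not passed. It was passed when genes of short RNAs were left out (adjusted p = 0.0446, within a range of 0.0412 to 0.295 over its alternatives). Its receptor gene, Gucy2c, was at 84.6 and 78.4 FPKM in the Lgr5-CREPTWT mice and at 89.3 and 89.1 FPKM in the Lgr5-CREPTKO mice. For Gucy2c the log2 fold change was 0.13 (95% interval -0.06 to 0.32, adjusted p = 0.336 by limma). Guca2b, the gene of another ligand of this receptor, overlapped between genotypes, at 20.1 and 26.9 FPKM in the Lgr5-CREPTWT mice and at 21.0 and 26.2 FPKM in the Lgr5-CREPTKO mice. The most abundant regulators were Gnas at 291 to 319, Plcb3 at 178 to 186 and Adcy6 at 97.7 to 125 FPKM over the 4 mice.

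**Figure D4:**
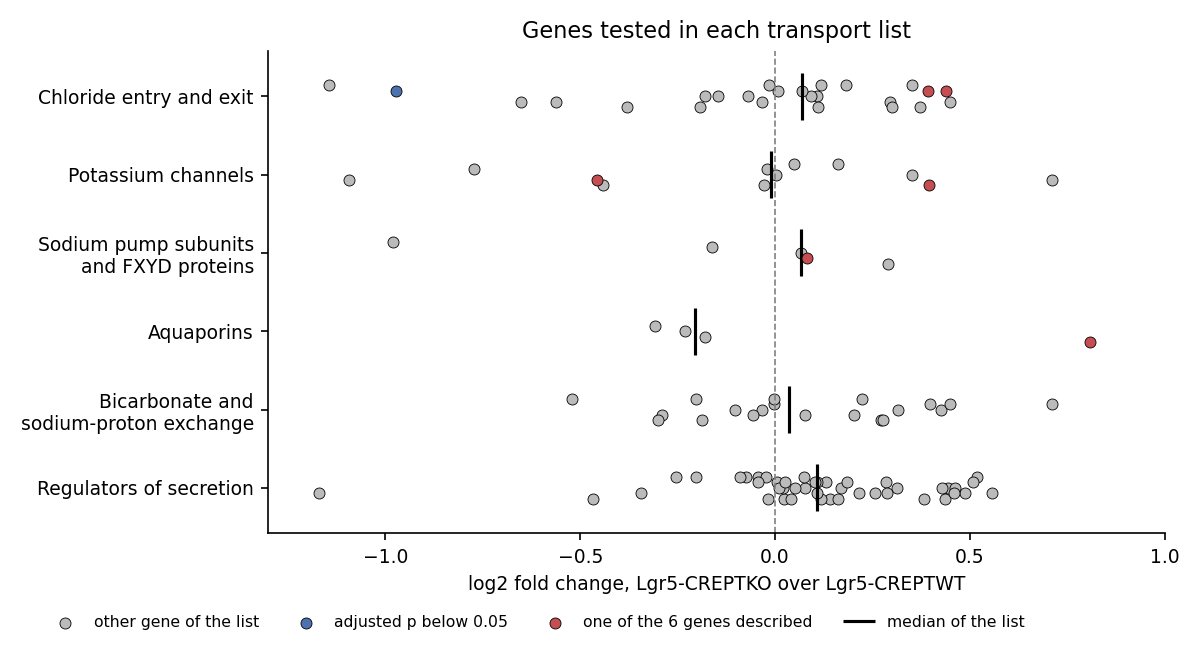
log2 fold change, Lgr5-CREPTKO over Lgr5-CREPTWT, of the genes tested in each of 6 transport lists; each point is a gene, red for the 6 transport genes and blue for Clca4b, which alone passed an adjusted p of 0.05, and black bars are list medians. Aqp1 stands at 0.81, apart from the other 3 aquaporins tested, and Kcnq1 and Kcne3 lie on opposite sides of 0.

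Because the cells were sorted by GFP, marker lists of the cell types that the gate could hold were read in the same mice. The 12 stem cell markers summed to 5918 and 5754 FPKM in Lgr5-CREPTWT and to 6315 and 6164 FPKM in Lgr5-CREPTKO mice. Olfm4 was the most abundant, at 4932 to 5351 FPKM, and Lgr5 itself was at 37.7 to 60.1 FPKM. By limma 0 of the 12 passed. At an unadjusted p under 0.05, 5 were higher and 0 lower, beside 9.27% and 15.2% of all genes tested, and 10 of the 12 had both Lgr5-CREPTKO values above the Lgr5-CREPTWT values, beside 25.6%. Gkn3, a stem cell marker outside this list and named after its values were seen, was at 128 and 91.9 FPKM in Lgr5-CREPTWT and 54.1 and 49.9 FPKM in Lgr5-CREPTKO mice. It fell by 1.06 on the log2 scale (adjusted p = 0.0496 by limma, range 0.0335 to 0.295 over 15 alternatives, of which 4 kept the call). The study's stem cell signature holds Gkn3 and also Aqp1, Kcnq1, Kcne3 and Slc12a2. The study reports the expression of this signature as little changed in sorted Lgr5+ cells that lack CREPT. Slc12a2, Cftr, Kcnq1 and Aqp1 lay on the side of most of the 12 listed markers, and Kcne3 on that of Gkn3. The part of this in the result was not tested.

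Goblet, enteroendocrine and tuft markers lay mostly on the other side. The 11 goblet markers summed to 1338 and 2306 FPKM in Lgr5-CREPTWT and to 756 and 888 FPKM in Lgr5-CREPTKO mice. By limma 1 of the 11 passed, as lower, beside 2.67% of all genes tested, and an unadjusted p under 0.05 was reached by 8 as lower and 0 as higher, beside 15.2% and 9.27%. Tff3, the most abundant, was at 537 and 937 FPKM in Lgr5-CREPTWT and 300.4 and 324 FPKM in Lgr5-CREPTKO mice. The log2 fold change of Tff3 was -1.18, and -0.82 with the length trend removed. The 14 enteroendocrine markers summed to 230.4 and 331 FPKM in Lgr5-CREPTWT and to 77.2 and 85.7 FPKM in Lgr5-CREPTKO mice, and by limma 6 of the 13 tested passed as lower (2.67% of all genes tested), with 12 lower and 0 higher at an unadjusted p under 0.05 (15.2% and 9.27%). Chgb, the most abundant by the mean over the 4 mice, fell by 1.18 on the log2 scale (adjusted p = 0.0423 by limma). In Lgr5-CREPTWT mice Gip was higher, at a mean of 74.8 against 62.0 FPKM for Chgb. The Chgb call was lost with no intensity trend (0.0835), with TPM scaling (0.0526) and with the replicate number as a block (0.0514). It was also lost with no filter on low values (0.132), where no gene passed. Leaving out any 1 mouse lost it too, with log2 fold changes of -1.42 to -0.94. Those fits had 1 mouse in a genotype and cannot decide the call. The tuft markers, 9 of 11 listed, summed to 29.0 and 63.5 FPKM in Lgr5-CREPTWT and to 24.6 and 9.11 FPKM in Lgr5-CREPTKO mice. By the mean over the 4 mice their most abundant gene was Avil, at 1.59 to 10.9 FPKM, but Trpm5 was above it in both Lgr5-CREPTKO mice. By limma 0 of the 8 tested tuft genes passed, with 5 lower and 0 higher at an unadjusted p under 0.05 (15.2% and 9.27% of all genes tested). Clca1 and Guca2a, named above as transport genes, are also in the goblet list. Kcne3, Guca2a and Clca1 lay on the same side as these lists, and the part of these cell types in their values was not tested.

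Other cell types varied between mice more than between genotypes. The 10 Paneth markers summed to 1645 and 1327 FPKM in Lgr5-CREPTWT and to 940 and 2575 FPKM in Lgr5-CREPTKO mice, led by Defa24 at 289 to 1081 FPKM. The 12 enterocyte markers summed to 932 and 1491 FPKM in Lgr5-CREPTWT and to 653 and 1168 FPKM in Lgr5-CREPTKO mice, led by Reg3b at 121 to 456 FPKM. The 15 immune markers summed to 17.1 and 30.9 FPKM in Lgr5-CREPTWT and to 5 and 54.0 FPKM in Lgr5-CREPTKO mice, led by Gzma, with Adgre1 at 0.02 FPKM or less. For these 3 lists the second Lgr5-CREPTKO mouse was above the first. Of the 6 transport genes, Kcne3 and Cftr were also higher in the second Lgr5-CREPTKO mouse, and Aqp1, Slc12a2, Kcnq1 and Atp1b1 were higher in the first. The part of these cell types in the results was not tested. By limma 0 of 12 enterocyte and 0 of 8 immune genes tested passed, and 1 of 10 Paneth genes passed as lower, beside 2.67% of all genes tested. At an unadjusted p under 0.05, 1 enterocyte gene was higher and 1 lower, 1 Paneth gene was lower and 0 immune genes were either, beside 9.27% higher and 15.2% lower of all genes tested.

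Red blood cells and endothelial cells are known for abundant AQP1, and their markers were read beside Aqp1. The 10 erythroid markers summed to 7.55 and 5.93 FPKM in Lgr5-CREPTWT and to 3.33 and 2.77 FPKM in Lgr5-CREPTKO mice. Hba-a1, the most abundant by the mean over the 4 mice, was at 2.32 FPKM or less. In Lgr5-CREPTKO mice the means of Epb42 (0.78) and Klf1 (0.675) were above that of Hba-a1 (0.56). The 11 endothelial markers summed to 11.7 and 10.4 FPKM in Lgr5-CREPTWT and to 9.79 and 9.52 FPKM in Lgr5-CREPTKO mice. Esam accounted for most of that sum at 7.98 to 9.89 FPKM, while Pecam1 was at 0.20 and Cdh5 at 0.01 FPKM or less. Both sums were lower in both Lgr5-CREPTKO mice, where Aqp1 was higher. The part of these cells in the level of Aqp1 was not tested. By limma 0 of 4 erythroid and 0 of 2 endothelial genes tested passed, with 3 erythroid genes lower and 0 endothelial genes at an unadjusted p under 0.05 (15.2% of all genes tested were lower). The 12 stromal and smooth muscle markers summed to 2.00 FPKM or less in each mouse, led by Tagln, with Acta2 at 0.02 FPKM or less, and 0 of the 2 tested passed by limma or had an unadjusted p under 0.05.

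**Figure D5:**
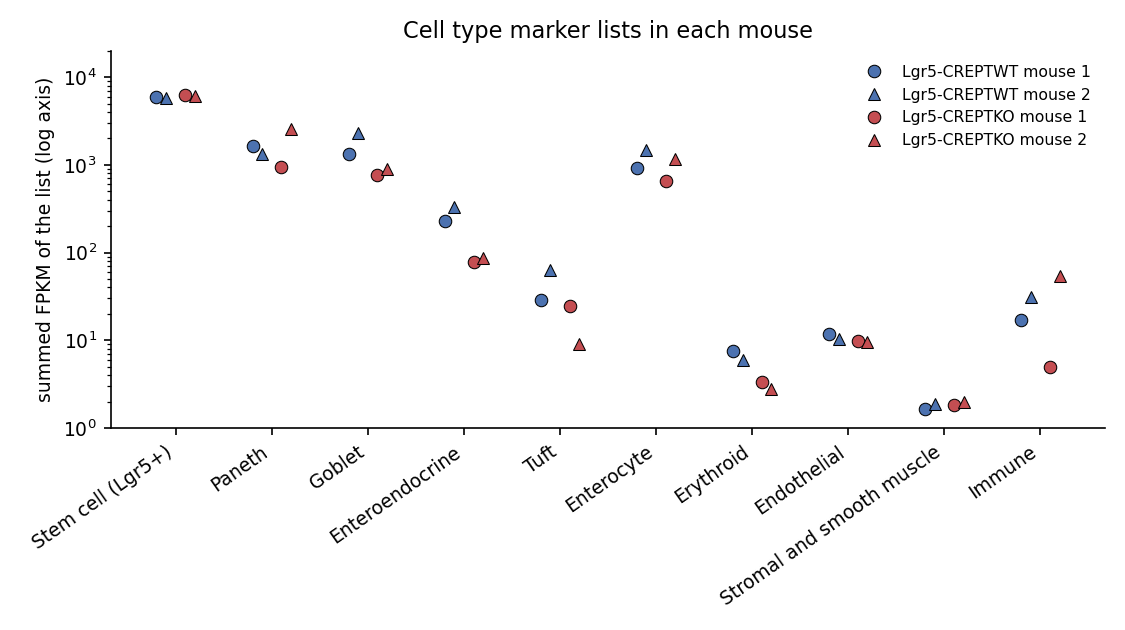
Summed FPKM, on a log axis, of 10 cell type marker lists in each mouse, blue for Lgr5-CREPTWT and red for Lgr5-CREPTKO, with circles for mouse 1 and triangles for mouse 2. Stem cell markers stand between 5754 and 6315 in the 4 mice, goblet and enteroendocrine sums are lower in both Lgr5-CREPTKO mice, and endothelial, erythroid and stromal sums stay under 12.

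For each of the 6 genes, the 2 genes most like it were taken from 6897 others with a mean of at least 10 FPKM, by the root mean square distance of centred log2(FPKM + 0.5) over 4 mice. Over so few mice many genes lie close to any pattern, so these are descriptions. Aqp1 was nearest to Mdn1 (distance 0.03), at 8.26 and 6.85 FPKM in Lgr5-CREPTWT and 15.2 and 11.9 FPKM in Lgr5-CREPTKO mice, and next to Sema5a (0.06). Slc12a2 was nearest to Wnk2 (0.01), a kinase of the WNK family from the list of regulators, at 10.1 and 9.07 FPKM in Lgr5-CREPTWT and 13.8 and 12.4 FPKM in Lgr5-CREPTKO mice, and next to Ep400 (0.01). Kcnq1 was nearest to Helz (0.01) and Lrp5 (0.01), of which Lrp5, a Wnt co-receptor gene, was at 31.7 and 31.2 FPKM in Lgr5-CREPTWT and 43.8 and 40.0 FPKM in Lgr5-CREPTKO mice. Cftr was nearest to Spen (0.01) and Atad3a (0.02), and Atp1b1 to Ahcyl2 (0.01) and Prcc (0.01). Kcne3 was nearest to Apob (0.03), at 33.1 and 27.0 FPKM in Lgr5-CREPTWT and 19.7 and 24.9 FPKM in Lgr5-CREPTKO mice, and next to Use1 (0.04).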

How the data were processed

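Total RNA of sorted cells was sequenced on a BGISEQ-500. The authors deposited 1 table of FPKM values with a column per mouse. The study's methods name mapping to GRCm38.p6 transcripts with Bowtie2 and quantification with RSEM for crypts and intestines, and the same steps are assumed for the sorted cells; the submitters' processing notes also name HISAT, and versions are not given in the sources used here. Genotypes came from the sample labels. FPKM is relative to each library and carries no counts, so log2(FPKM + 0.5) was fitted in limma 3.58.1 (R 4.3.3; lmFit, then eBayes with a trend on intensity) for genes averaging 0.5 FPKM or more, with Benjamini-Hochberg adjustment over all genes tested. Fold changes on this scale understate those of low genes. The fit was tested on simulated data. Alternatives were pseudocounts of 0.1 and 1, other filters and scalings, no trend, a replicate block, no short RNA genes, each mouse left out, a fold threshold and, chosen after the data were seen, removal of a lowess trend on transcript length.

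Named genes were the 6 members and Rprd1b, set partner genes, called genes and the 3 most abundant per transport list, the most abundant gene and genes near 0 per cell type list, and 2 nearest genes per member. Nme7 and Kcnq1ot1, which overlap members, 4933417O13Rik, Clca4a, Gkn3, Guca2b and Lgr5 were named after their values were seen. So were Aqp7, Gip, Trpm5, Epb42 and Klf1. Some genes that fall under the rule are not reported here. The members and lists were chosen with earlier results of these data known. Sequences and positions are from RefSeq on GRCm38.p6, and transcript lengths and overlaps from GENCODE M21.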

Additional observations from a re-analysis of the deposited data

How the results depend on the processing

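Over 15 alternatives, Aqp1, Slc12a2, Kcnq1, Cftr and Kcne3 kept their direction, and Slc12a2, Kcnq1, Cftr, Kcne3 and Atp1b1 stayed above an adjusted p of 0.05. Atp1b1 turned to -0.017 without the first Lgr5-CREPTWT mouse and to -0.021 without the first Lgr5-CREPTKO mouse, with leave-one-out values of -0.021 to 0.19. Aqp1 passed without short RNA genes (log2 fold change 0.81, adjusted p 0.0453, fewer genes tested), so 1 of 6 members passed. With the replicate block, Aqp1 also passed (0.81, adjusted p 0.0412), again 1 of 6, and 15 genes were called higher and 168 lower; same-numbered mice were different animals, and their deviations correlated at -0.03, so the numbers did not pair them.

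Genes called higher and lower, 52 and 337 in the report, were 0 and 0 with no filter on low values, 0 and 4 with no intensity trend, 115 and 508 without short RNA genes, 16 and 128 with an absolute log2 fold change over 1 as well, and 36 and 166 with TPM scaling. Leaving out any 1 mouse gave 0 to 0 higher and 0 to 0 lower by limma; the remaining mouse of a genotype was then assumed to vary like the others. The cause of these shifts was not tested. At the estimated depth the counting error of the lowest member was 2.86% for the fragments on a single kilobase of its transcript.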
